A study of Mus musculus with 6 samples.

Results

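Scavenger receptors are surface proteins of phagocytes and some endothelial cells that bind modified lipoproteins, dying cells, microbes and host proteins and carry them into the cell. The genes described here are Cd36 and 6 other genes of such receptors, Msr1, Marco, Scarb1, Cd163, Stab1 and Mrc1, chosen by symbol from the deposited table. They are 7 of its 57180 genes, and all 7 passed the filter on low counts that left 14761 genes for testing. Their counts ran from 12 to 7755 in a library.

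The libraries were made from cells sorted as natural killer (NK) cells, with or without surface CD36, from fibrotic mouse liver. The study defines NK cells as CD3- NK1.1+ in its flow cytometry and does not state the gate of this sort. The mice were male C57BL/6J animals of 6 to 8 weeks. Fibrosis had been induced with carbon tetrachloride (CCl4), a solvent toxic to hepatocytes, given intraperitoneally at 2.5 ml/kg as a 20% solution in olive oil, with 2 injections per week for 4 weeks, and livers were taken 48 h after the last injection. There were 3 libraries of CD36+ NK and 3 of CD36- NK. Both groups came from CCl4-treated liver, and oil-treated liver was not analysed here. Whether a library held cells of 1 mouse or of several is not given in the sources used here, so p-values measure the spread between these libraries, which may be technical.

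Cd36 is a class B scavenger receptor that takes up long-chain fatty acids and oxidised low-density lipoprotein. Scarb1, of the same class, is the receptor for high-density lipoprotein. Msr1 and Marco are class A receptors with a collagen-like stem, which bind acetylated lipoprotein and bacteria. Cd163 takes up haemoglobin bound to haptoglobin, Stab1 clears modified proteins and is also an endothelial gene in the liver sinusoid, and Mrc1, the mannose receptor, binds sugars on glycoproteins and collagen. Several of these genes are known from resident macrophages and sinusoidal endothelium of the liver, and Cd36 and Scarb1 also from hepatocytes.

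The libraries held between 10292480 and 13787189 counts in total. The check of the sort against its marker is the level of Cd36, which was higher in every library titled CD36+. The names of these libraries read CD36--NK, whereas the sample titles, which were used here, read CD36+. CD36+ NK replicate 1 stood apart, with Cd3e at 27.0 CPM (counts scaled to the library size) against at most 1.06 in each other library, although the study defines NK cells as CD3-. Klrb1c, the gene of NK1.1, was at 83.1, 105.7 and 77.9 CPM in CD36+ NK and at 495, 449 and 524 CPM in CD36- NK, and fell by 2.46 on the log2 scale. It was 1 of 10 listed NK cell markers, all 10 of which were called lower in CD36+ NK, where their summed level was 933 to 1129 CPM against 4956 to 6310 CPM in CD36- NK. Of 12 listed macrophage and Kupffer cell markers 10 could be tested. All 10 had positive log2 fold changes with a median of 2.84, and 2 were called higher, Adgre1 and Csf1r. Of all tested genes, 2.98% were called higher and 2.98% lower. The summed level of the 12 was 6656 to 9314 CPM in CD36+ NK and 2439 to 5785 CPM in CD36- NK, of which Lyz2 made up 3486 to 4305 CPM and 2052 to 4747 CPM. Clec4f, a defining gene of Kupffer cells, was at 45.9 CPM in CD36+ NK replicate 2, at 1.51 CPM in replicate 1 and at 0 in the other 4 libraries. Of the same list, Cd5l was at 129, 237 and 454 CPM in CD36+ NK and at 12.99, 85.8 and 11.1 CPM in CD36- NK, and Timd4 at 8.28, 14.6 and 23.6 CPM and at 1.15, 4.42 and 0 CPM, both without overlap and highest in CD36+ NK replicate 3. The 6 B cell genes reported here summed to 3254 to 3622 CPM in CD36+ NK and to 2187 to 2629 CPM in CD36- NK. The part of these other cell types in the results on the receptor genes was not tested. In sorted bulk samples, fewer cells of a type and less RNA per cell cannot be told apart.

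A gene was called when its fold change was above 2 and its p from edgeR's quasi-likelihood test, adjusted by Benjamini and Hochberg over the tested genes, was under 0.05. Of the tested genes, 5.96% were called, 2.98% higher and 2.98% lower in CD36+ NK. The 7 receptor genes include Cd36, on whose protein the cells were sorted, and were chosen with earlier results of these data known. Of the 7 receptor genes, 4 were called higher (57.1%), Cd36, Marco, Cd163 and Stab1, and the other 3 were not called. The same 4 were called without CD36+ NK replicate 1. Without CD36+ NK replicate 2 or 3 there were 2 calls, without CD36- NK replicate 1 or 3 there was 1, Cd36, and without CD36- NK replicate 2 there were 6. The level of 6 of the 7 was higher in every CD36+ NK library than in every CD36- NK library, a pattern that 17.0% of tested genes showed. All 7 log2 fold changes (CD36+ NK over CD36- NK) were positive, as were 51.9% of those of tested genes. They ran from 0.16 to 3.50 with a median of 2.87, against a median of 0.012 over all tested genes. The plot of levels by library shows these values.

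**Figure D1:**
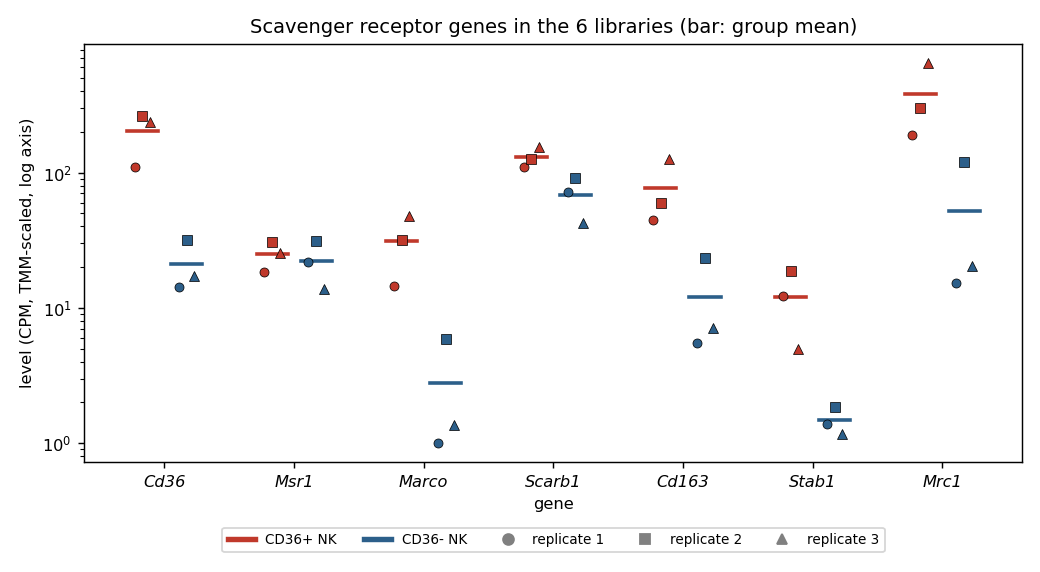
Level of each of the 7 receptor genes in CPM (log axis) in the 3 CD36+ NK and 3 CD36- NK libraries, with a point for each library, its shape giving the replicate, and bars for group means. The groups overlap for Msr1 and do not overlap for the other 6 genes.

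Gene positions below are those of the deposited table, whose build is not named. Among class B receptors, Cd36 (ENSMUSG00000002944, chromosome 5, 17986688 to 18093799, minus strand) was at 109.7, 263 and 238 CPM in CD36+ NK replicates 1 to 3 and at 14.3, 31.7 and 17.1 CPM in CD36- NK replicates 1 to 3. The lowest CD36+ NK library lay 3.45-fold above the highest CD36- NK library. The fitted log2 fold change was 3.27 (SE 0.426, adjusted p = 0.00615), and since the cells were sorted on this protein it serves as a check of the sort. Cd36 RNA was also present in every CD36- NK library, at 175 to 359 counts.

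Scarb1 (ENSMUSG00000037936, chromosome 5, 125354151 to 125418158, minus strand) was at 110.5, 126 and 155 CPM in CD36+ NK and at 72.0, 90.5 and 42.0 CPM in CD36- NK. Every CD36+ NK library was above every CD36- NK library. The log2 fold change was 0.94 (SE 0.271, adjusted p = 0.0717), so Scarb1 was not called. It was called without CD36- NK replicate 2 (1.19, adjusted p = 0.0331).

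Of the class A receptors, Marco (ENSMUSG00000026390, chromosome 1, 120402267 to 120432753, minus strand) was at 14.4, 31.6 and 47.5 CPM in CD36+ NK and at 0.999, 5.92 and 1.37 CPM in CD36- NK. The groups did not overlap, and CD36- NK replicate 2 was the highest of its group. The log2 fold change of 3.50 (SE 0.707, adjusted p = 0.0254) was above that of Cd36 and ranked 19 of the 14761 tested genes from the highest. The call was lost when replicate 2 or 3 of CD36+ NK was left out (log2 fold changes of 3.49 and 3.06, adjusted p of 0.0788 and 0.084). It was also lost when replicate 1 or 3 of CD36- NK was left out (3.06 and 3.18, adjusted p of 0.084 and 0.0947).

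Msr1, the other class A receptor (ENSMUSG00000025044, chromosome 8, 40034726 to 40095714, minus strand), was at 18.5, 30.9 and 25.3 CPM in CD36+ NK and at 21.7, 31.4 and 13.8 CPM in CD36- NK, so the groups overlapped. Its log2 fold change was 0.16 (SE 0.312, adjusted p = 0.801). Its sign turned without CD36+ NK replicate 2 (-0.0247) and without CD36- NK replicate 3 (-0.1).

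Cd163, the haemoglobin scavenger receptor (ENSMUSG00000008845, chromosome 6, 124281615 to 124307486, plus strand), was at 44.6, 59.2 and 125 CPM in CD36+ NK and at 5.54, 23.3 and 7.13 CPM in CD36- NK. The groups did not overlap, and the fitted log2 fold change was 2.67 (SE 0.621, adjusted p = 0.0389). The call was lost when replicate 2 or 3 of CD36+ NK was left out (log2 fold changes of 2.83 and 2.12, adjusted p of 0.0878 and 0.115). It was also lost when replicate 1 or 3 of CD36- NK was left out (2.30 and 2.39, adjusted p of 0.112 and 0.134).

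Stab1 (ENSMUSG00000042286, chromosome 14, 30860970 to 30890598, minus strand) was at 12.3, 18.8 and 4.99 CPM in CD36+ NK and at 1.38, 1.86 and 1.17 CPM in CD36- NK. The groups did not overlap. Replicate 3 was the lowest CD36+ NK library for Stab1, whereas replicate 1 was the lowest for the other 6 genes. The log2 fold change was 3.02 (SE 0.507, adjusted p = 0.0142). The call was lost without CD36- NK replicate 1 (2.96, adjusted p = 0.0671) or replicate 3 (2.88, adjusted p = 0.0642). Stab1 and Mrc1 are also genes of liver sinusoidal endothelium, whose 8 listed markers summed to 181 to 218 CPM in CD36+ NK and to 151 to 155 CPM in CD36- NK. Of its defining markers in that list, Gpr182 was at 0 in all 6 libraries, and Lyve1, Clec4g, Ptprb and Oit3 each had at most 10 counts in any library. From the same list Cdh5 had 18, 76 and 19 counts in CD36+ NK and 10, 11 and 5 in CD36- NK (log2 fold change 1.97, adjusted p = 0.0885), and Pecam1, which blood cells also express, made up most of the sum and was at 0.38 (adjusted p = 0.0473). Stab2, a relative of Stab1 also known from that endothelium but not in the list, had 368, 518 and 1070 counts in CD36+ NK. In CD36- NK it had 45, 194 and 26 counts (log2 fold change 2.79, adjusted p = 0.0586). The part of endothelial cells in these results was not tested.

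Mrc1, the mannose receptor (ENSMUSG00000026712, chromosome 2, 14234203 to 14336868, plus strand), was at 189, 298 and 645 CPM in CD36+ NK and at 15.4, 119 and 20.2 CPM in CD36- NK. Its groups did not overlap either, but CD36- NK replicate 2 was far above the other 2 libraries of its group. The log2 fold change of 2.87 had the largest standard error of the 7 (0.860), and the adjusted p of 0.0787 missed the threshold. Without CD36- NK replicate 2 the log2 fold change was 4.4 and Mrc1 was called (adjusted p = 0.00967). It was also called by DESeq2 (adjusted p = 0.0314) and by edgeR's exact test (adjusted p = 0.00781).

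**Figure D2:**
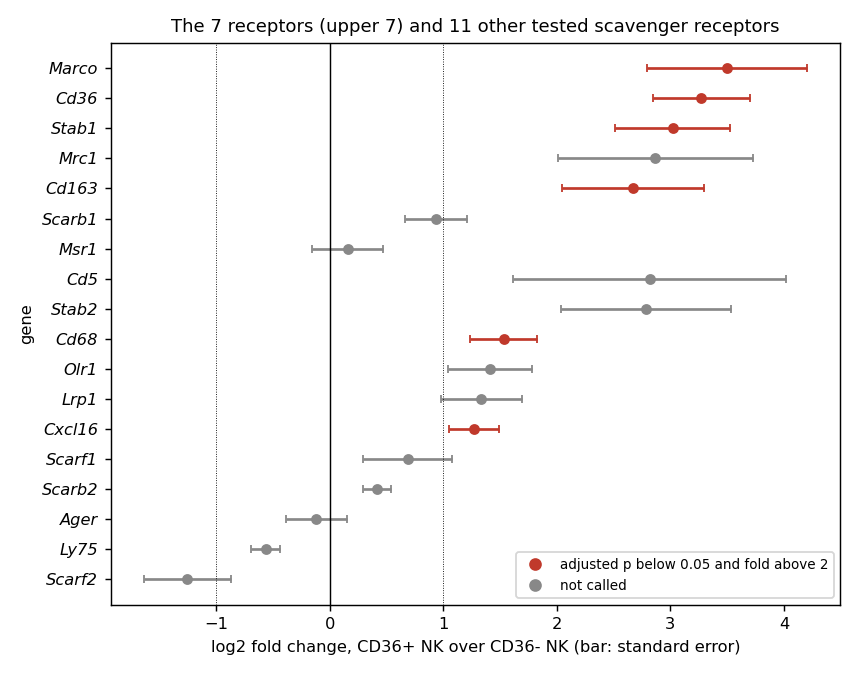
Log2 fold change, CD36+ NK over CD36- NK, of the 7 receptor genes (upper) and of 11 other tested scavenger receptor genes (lower) from edgeR's quasi-likelihood fit, with bars of 1 standard error, red points for called genes and grey points for the others. In the upper set the values of Cd36, Marco, Stab1, Mrc1 and Cd163 lie between 2.67 and 3.50, and those of Scarb1 and Msr1 at 0.94 and 0.16.

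The 4 called genes are shown here by the 250 bases before their start sites, to set the composition of their promoters side by side. Sequences of 5 of the 7 genes were matched in the set of RefSeq promoters used here (GRCm38.p6), in which Msr1 and Scarb1 had no match. Those of the called genes are given 5′ to 3′ on the gene's strand. The table's own coordinates are of a build that is not named and are not comparable with these. The capitals mark a match to AGGTCA, the hexamer bound by nuclear receptors, read on the opposite strand.
Cd36 (chr5:17835897-17836146, minus strand): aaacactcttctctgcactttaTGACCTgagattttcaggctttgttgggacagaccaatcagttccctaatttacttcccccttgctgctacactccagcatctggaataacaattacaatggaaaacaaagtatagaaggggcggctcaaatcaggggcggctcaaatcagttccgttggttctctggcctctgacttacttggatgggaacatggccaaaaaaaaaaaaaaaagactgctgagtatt
Marco (chr1:120505025-120505274, minus strand): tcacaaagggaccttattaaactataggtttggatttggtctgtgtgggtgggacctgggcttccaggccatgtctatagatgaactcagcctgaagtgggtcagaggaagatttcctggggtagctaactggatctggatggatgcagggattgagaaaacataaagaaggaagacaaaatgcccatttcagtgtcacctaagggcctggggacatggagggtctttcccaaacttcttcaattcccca
Cd163 (chr6:124304401-124304650, plus strand): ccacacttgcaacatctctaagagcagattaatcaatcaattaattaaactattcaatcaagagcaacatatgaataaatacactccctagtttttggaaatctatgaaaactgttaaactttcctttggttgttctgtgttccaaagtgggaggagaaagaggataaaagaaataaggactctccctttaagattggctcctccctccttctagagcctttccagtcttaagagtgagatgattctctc
Stab1 (chr14:31168642-31168891, minus strand): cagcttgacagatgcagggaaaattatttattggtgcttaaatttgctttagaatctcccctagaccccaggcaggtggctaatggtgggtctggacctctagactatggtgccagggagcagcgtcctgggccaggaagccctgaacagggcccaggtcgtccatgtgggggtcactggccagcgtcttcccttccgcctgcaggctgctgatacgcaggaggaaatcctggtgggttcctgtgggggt

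The GC content of these windows was 43.2% for Cd36, 47.6% for Marco, 36.8% for Cd163 and 57.2% for Stab1, against a median of 52.4% over the 32851 promoters of the RefSeq table. The motifs searched on both strands were AGGTCA, held by 14% of those promoters, its direct repeat spaced by 1 base, which PPAR and RXR bind (0.0335%, each also a match to AGGTCA), GAGGAAGT of PU.1 (2.44%), TGANTCA of AP-1 (6.75%), the NF-kB motif (1.21%) and the TATA box as TATAAA (12.4%). In these windows and that of Mrc1 the sole match was AGGTCA before Cd36, at positions -228 to -223 from the start site. Other start sites of Cd36 were not examined, and the absence of these letters from a window says nothing about a factor's binding.

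Levels were compared between genes on the FPKM scale, which divides by gene length. In CD36+ NK, Mrc1 had the highest FPKM (49.3 ± 29.8, SD, n = 3), followed by Cd36 (23.8 ± 9.33), Marco (15.1 ± 7.66), Cd163 (10.7 ± 5.72), Scarb1 (10.4 ± 1.52), Msr1 (3.53 ± 0.847) and Stab1 (0.742 ± 0.429). In CD36- NK the order of FPKM was Mrc1 (7.10 ± 8.16), Scarb1 (5.64 ± 2.11), Msr1 (3.27 ± 1.35), Cd36 (2.56 ± 1.18), Cd163 (1.76 ± 1.47), Marco (1.40 ± 1.41) and Stab1 (0.0931 ± 0.0238). The place of Mrc1 in CD36- NK came from replicate 2, since its FPKM was 2.09, 16.5 and 2.70 and was above that of Scarb1 in 1 of 3 libraries. Of neighbours in these orders, the gap between means exceeded the larger SD for Scarb1 over Msr1 in both groups and for Msr1 over Stab1 in CD36+ NK, and for no other pair. Within single libraries, each gene of the CD36+ NK order was above the next in 3 of 3, except Cd163 over Scarb1 (1 of 3). In CD36- NK the exceptions were Mrc1 over Scarb1 (1 of 3) and Msr1 over Cd36 (2 of 3).

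As a share of the summed FPKM of the 7 genes, Scarb1 made up 29.8% ± 11.1 in CD36- NK and 10.2% ± 3.41 in CD36+ NK (SD, n = 3), and Msr1 16.9% ± 5.13 and 3.41% ± 1.14. The FPKM of neither gene was lower in CD36+ NK on average. Marco made up 5.64% ± 2.10 in CD36- NK and 12.9% ± 1.59 in CD36+ NK, Cd36 13.1% ± 3.68 and 21.7% ± 5.99, and Mrc1 26.5% ± 14.1 and 41.7% ± 7.36. The summed FPKM was 65.3, 110 and 166 in CD36+ NK and 14.3, 39.3 and 11.9 in CD36- NK.

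Whether the other 6 genes followed Cd36 was examined library by library. In CD36- NK all 7 genes were highest in replicate 2. In CD36+ NK, Cd36, Msr1 and Stab1 were highest in replicate 2, and Marco, Scarb1, Cd163 and Mrc1 were highest in replicate 3. The plot of centred profiles shows these orders.

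**Figure D3:**
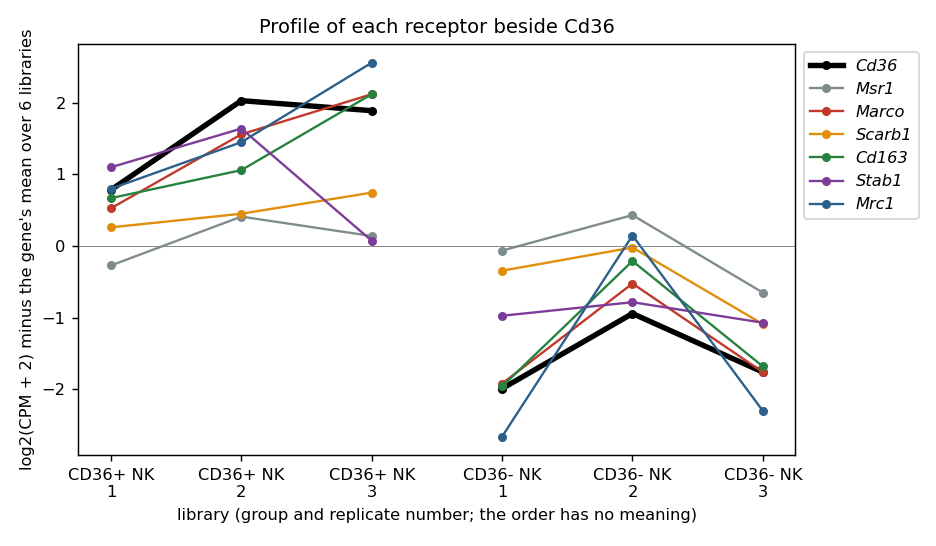
Profiles of the 7 genes over the 6 libraries, as log2(CPM + 2) after each gene was centred on its own mean, with lines that join the points of 1 gene within a group. Marco lies closest to Cd36, with a root mean square difference of 0.295, and Msr1 farthest, with 1.51.

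The likeness of a gene to Cd36 was measured by the root mean square difference of centred log2(CPM + 2) over the 6 libraries, where a small value means a like profile, and all other 14760 tested genes were ranked by it. Marco was at 0.295 (rank 6), Cd163 at 0.507 (rank 24), Mrc1 at 0.672 (rank 98), Stab1 at 0.921 (rank 241), Scarb1 at 1.16 (rank 523) and Msr1 at 1.51 (rank 2641). The other 9 of the 10 nearest genes were Lilra5 (0.155), Dnah12 (0.165), Fabp4 (0.176), Fcgr4 (0.277), Treml4 (0.286), Fpr1 (0.315), Ear2 (0.316), Tgm2 (0.327) and Cd300ld (0.335). These values describe 6 libraries of 2 groups, so a gene that differs between the groups by about as much as Cd36 is near it by that alone.

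On the scale of the log2 ratio of a gene to Cd36, with a pseudocount of 2, the difference between group means (CD36+ NK minus CD36- NK) was 0.0763 for Mrc1, -0.328 for Marco, -0.565 for Cd163 and -1.25 for Stab1, and for these genes the groups overlapped. With a pseudocount of 0.5 it was 0.211 for Marco and -0.725 for Stab1. It was -2.16 for Scarb1 and -2.95 for Msr1, without overlap. Exact two-sided permutation tests gave p = 0.1 for the last pair, the smallest that 3 against 3 libraries allow, and adjusted p = 0.3 over the 6 ratios. Such a test cannot reach 0.05, so it does not decide whether the ratios differed. The group means of the log2 ratio were -2.86 ± 0.368 and 0.0827 ± 0.416 for Msr1 and -0.547 ± 0.53 and 1.61 ± 0.508 for Scarb1 (SD, n = 3, CD36+ NK first), so both differences were larger than the spread between replicates. Leaving out 1 library gave -0.242 (without CD36+ NK replicate 3) to 0.64 (without CD36- NK replicate 2) for Mrc1, with a change of sign also without CD36- NK replicate 1 or 3. Without CD36+ NK replicate 2 the value was -0.224 for Cd163 and -0.176 for Marco, without CD36- NK replicate 2 it was -0.34 and -0.201, and without CD36+ NK replicate 3 it was -0.527 for Marco and -0.657 for Stab1.

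The same was done against the mean of the 10 tested macrophage and Kupffer cell markers, 2 of which were called higher. The difference in log2 ratio to that mean was 0.771 for Cd36, 0.442 for Marco, 0.205 for Cd163 and -0.48 for Stab1, with overlap between the groups. With a pseudocount of 0.5 the value was 0.921 for Marco and -0.015 for Stab1, and with Csf1r in place of the list it was 0.826 for Marco, 0.589 for Cd163 and -0.0959 for Stab1. Without CD36- NK replicate 2 it was 0.481 for Cd36, 0.28 for Marco and -1.0 for Stab1, without CD36- NK replicate 1 it was 0.0763 for Cd163, and without CD36+ NK replicate 3 it was 0.267 for Stab1 and 0.102 for Cd163. Without CD36- NK replicate 3 it was 0.398 for Cd163. The difference was 0.847 for Mrc1, -1.39 for Scarb1 and -2.17 for Msr1, without overlap (exact permutation p = 0.1, adjusted p = 0.233 over 7 ratios). CD36- NK replicate 2, in which all 7 receptor genes were highest, also had the highest macrophage sum of its group, at 5785 CPM.

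**Figure D4:**
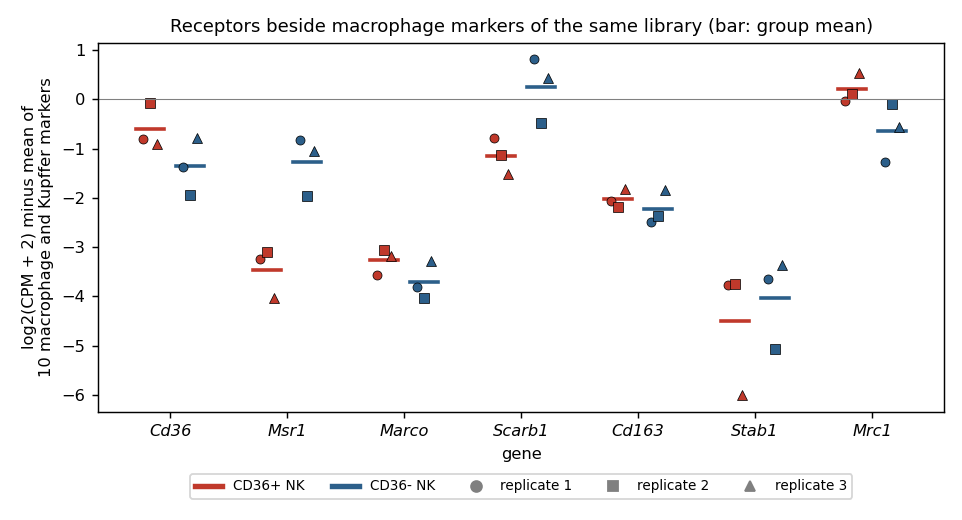
Level of each receptor gene as log2(CPM + 2) minus the mean of the 10 tested macrophage and Kupffer cell markers in the same library, with points for libraries, colours for groups and bars for group means. The groups do not overlap for Mrc1 (CD36+ NK above) or for Msr1 and Scarb1 (CD36- NK above), and overlap for the other 4 genes.

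Other scavenger receptors were examined in a list of 20 genes, of which 11 could be tested. Of these 2 were called higher, against 2.98% of all tested genes, and their median log2 fold change was 1.27. Cd68, a lysosomal membrane glycoprotein of macrophages, was at 180, 239.9 and 298 CPM in CD36+ NK and at 76.5, 116 and 55.6 CPM in CD36- NK (log2 fold change 1.53, SE 0.294, adjusted p = 0.0219). Cxcl16, which binds phosphatidylserine and oxidised lipoprotein and is also a chemokine, had a log2 fold change of 1.27 (adjusted p = 0.0162). Lrp1, an endocytic receptor for apolipoproteins and protease complexes and the most expressed of the list, was at 1.34 (adjusted p = 0.057). Stab2, the relative of Stab1 that takes up hyaluronan, was at 32.8, 38.1 and 89.0 CPM in CD36+ NK and at 3.46, 17.2 and 2.54 CPM in CD36- NK (adjusted p = 0.0586). Cd5, a T cell gene of the same protein family as Cd163, was at 36.9 CPM in CD36+ NK replicate 1 and at 1.40 to 2.41 CPM in the other 5 libraries. Scara3 and Lrp2 were at 0 in all libraries. By edgeR, 0 of the list were called when replicate 2 or 3 of CD36+ NK or replicate 1 or 3 of CD36- NK was left out. Those fits have fewer libraries and called 418, 451, 417 and 431 genes in all, against 880 with all libraries. Scarf2 and Ly75 were lower in every CD36+ NK library, with log2 fold changes of -1.25 (adjusted p = 0.0843) and -0.56 (adjusted p = 0.0368, under the fold threshold). DESeq2 called 6 with all libraries, of which Scarf2 was lower, and 5 were called by edgeR without CD36- NK replicate 2. These fits called 1143 and 1160 genes in all.

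Of 16 listed partners and signalling genes of CD36, all tested, 3 were called higher and 1 lower, with a median log2 fold change of 0.195. Among all tested genes 2.98% were called higher and 2.98% lower, and the median was 0.012. Cd81, a tetraspanin, was at 1.60 (adjusted p = 0.0115), Tlr2, the receptor for bacterial lipopeptides, at 1.19 (adjusted p = 0.0199) and the kinase Src at 2.18 (adjusted p = 0.00631). The kinase Fyn, which is also abundant in lymphocytes, was at 170, 176 and 186 CPM in CD36+ NK and at 363, 363 and 529 CPM in CD36- NK, and fell by 1.24 on the log2 scale (adjusted p = 0.00631). The genes of highest mean CPM over the 6 libraries were Itgb2, an integrin subunit, and Syk, a kinase, neither of them called. The call of Tlr2 was lost when replicate 2 or 3 of CD36+ NK or replicate 3 of CD36- NK was left out, and that of Cd81 without CD36- NK replicate 1.

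Of 13 listed transcription factors known to act on scavenger receptor genes, 12 were tested. Of these 2 were called higher, against 2.98% of all tested genes. Their median log2 fold change was 0.634, against 0.012 over all tested genes. Pparg, the nuclear receptor known to activate Cd36, was at 33.4, 66.3 and 85.4 CPM in CD36+ NK and at 4.92, 13.97 and 2.44 CPM in CD36- NK. The log2 fold change of Pparg was 3.11 (adjusted p = 0.024). Cebpb, a factor of myeloid cells, was at 1.27 (adjusted p = 0.0101). Klf4, which had the highest mean CPM of the list over the 6 libraries, lay between 357 and 513 CPM in CD36+ NK and between 264 and 389 CPM in CD36- NK, and it was not called. When replicate 2 or 3 of CD36+ NK or replicate 1 or 3 of CD36- NK was left out, Cebpb was the 1 factor called.

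Of 12 listed genes for the fate of what these receptors take up, 11 were tested. Of these 4 were called higher, against 2.98% of all tested genes. Their median log2 fold change was 0.634, against 0.012 over all tested genes. Fabp4, a fatty acid carrier, was at 15.04, 35.5 and 29.1 CPM in CD36+ NK and at 0.923, 3.89 and 0.586 CPM in CD36- NK. Fabp4 had a log2 fold change of 3.88 (adjusted p = 0.0134). Plin2, a coat protein of lipid droplets, was at 1.29 (adjusted p = 0.0117), Lipa, the lysosomal lipase, at 1.32 (adjusted p = 0.024), and Blvrb, which reduces biliverdin, at 1.25 (adjusted p = 0.0373). Hmox1, which degrades the haem that Cd163 brings in, was at 654, 712 and 1632 CPM in CD36+ NK and at 93.9, 315 and 59.4 CPM in CD36- NK, with an adjusted p of 0.0501. Npc2, which moves cholesterol out of lysosomes, lay between 307 and 371 CPM in CD36+ NK and between 274 and 371 CPM in CD36- NK. By edgeR, 0 cargo genes were called when CD36+ NK replicate 2 or CD36- NK replicate 1 was left out. Those fits have fewer libraries and called 418 and 417 genes in all. With all libraries DESeq2 called 5 cargo genes and 1143 genes in all, against 880 genes in edgeR's main fit. Fabp4 and Plin2 were the 2 called when replicate 3 of either group was left out.

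**Figure D5:**
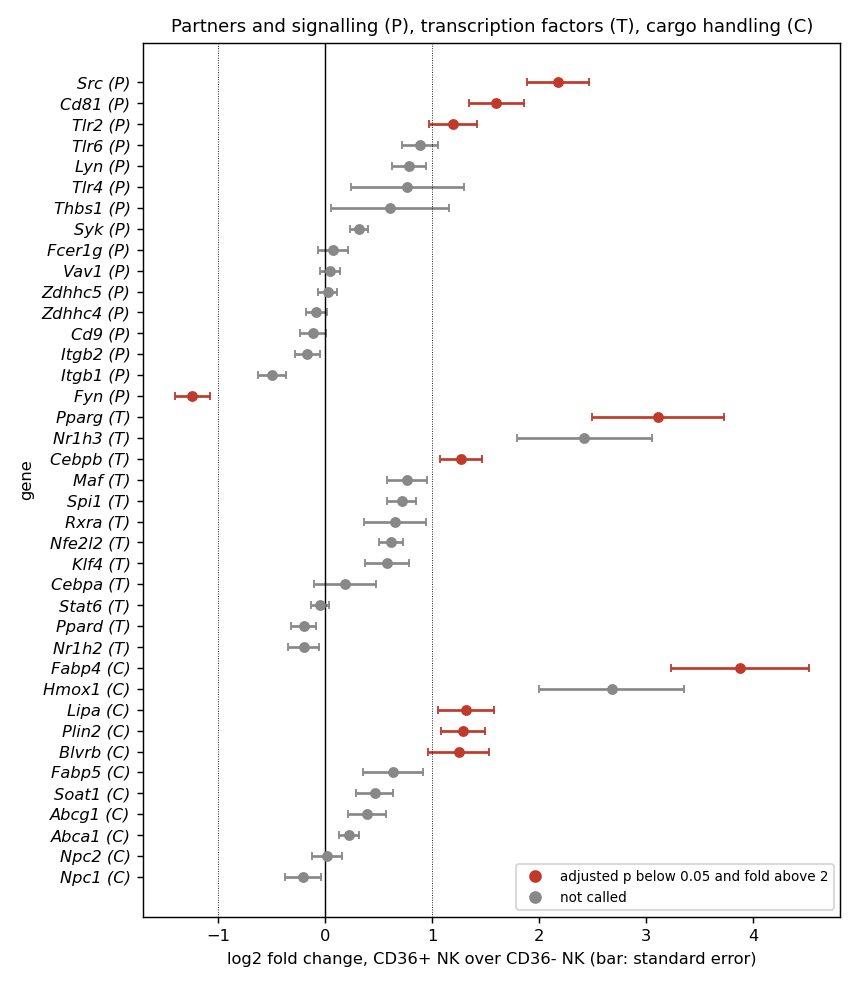
Log2 fold changes (CD36+ NK over CD36- NK) of the tested genes of the lists of partners and signalling genes (P), transcription factors (T) and cargo genes (C), with bars of 1 standard error, red points for called genes and grey points for the others. Higher calls number 3, 2 and 4 in the lists, and the 1 lower call is Fyn.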

How the data were processed

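The authors filtered reads with Seqtk, mapped them with HISAT2 2.0.4 and counted fragments per gene with StringTie 1.3.3b, and the deposited counts are not normalized. The FPKM values deposited beside them by the authors equalled the count divided by gene length and library total in 100% of 7439 genes (tolerance 0.1%), and served only to compare levels between genes. The only build in the labels is mRatBN7.2, a rat assembly, although the gene identifiers are mouse, and the build of the table's coordinates is not given in the sources used here. The broken lines of 2 genes were rejoined. Columns were matched to samples by library name. The names of 2 CD36- NK columns also match the titles of other CD36- NK samples, so the replicate numbers within CD36- NK rest on that choice and the group does not.

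Counts were tested with edgeR 4.0.16 in R 4.3.3 (quasi-likelihood, TMM, filterByExpr with a minimum count of 10, no block), and p-values were adjusted over all 14761 tested genes. The DEG thresholds were an adjusted p of 0.05 and a fold of 2. A standard error is the size of the log2 fold change over the root of its F statistic. CPM were scaled by TMM, and ratios on the log2(CPM + 2) scale were compared with exact permutation tests in scipy 1.17.1. Replicates differed by more than sampling noise (chi-square per degree of freedom 14.8 to 29.2), and the biological coefficient of variation was 20.3%. On counts simulated for this comparison over 14761 genes, all given that same variation, 197 of 200 genes changed 4-fold were called (98.5%), with 2 unchanged genes. That share does not carry over to genes of larger variation. In the data, 86 tested genes had a log2 fold change of at least that of Mrc1, and 51 of them were called.

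The members and lists were chosen with earlier results of these data known. Named genes are the 7 receptors, the called genes and the 2 most expressed genes of each of the 4 further lists, the 10 genes nearest to Cd36 and the 3 most expressed of each marker list, and 2 listed genes are not reported here. Stab2, Cd5, Scara3, Lrp2, Scarf2, Ly75, Cd3e, Clec4f, Cd5l, Timd4, Klrb1c, Lrat, the called genes of the marker lists and the endothelial markers were named after their values were seen. The alternatives tried were edgeR's exact test, DESeq2 1.42.0, other scalings, filters and pseudocounts, blocks, equal depth and leaving out libraries.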

Additional observations from a re-analysis of the deposited data

How the results depend on the processing

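Of 16 alternatives with the same call thresholds, Cd36 was called in 16, Stab1 in 13, Marco in 11 and Cd163 in 10. With replicates 2 and 3 only, whose library names share a form, the log2 fold changes of Marco, Cd163 and Stab1 were 3.40, 2.58 and 2.95, with adjusted p of 0.0658, 0.113 and 0.114, and 1 of the 7 genes was called, with 433 genes in all. That fit called 0 of the other scavenger receptors, 3 partners, 1 transcription factor and 0 cargo genes. It has fewer libraries. Mrc1 was called by DESeq2 (2.86), by edgeR's exact test (2.87) and with the form of the library name as a block (3.02). DESeq2 and the exact test each called 6 of the other scavenger receptors, with 1143 and 1247 genes called in all against 880 in the main fit. With no fold threshold 1552 genes in all and 5 transcription factors passed.

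Same-numbered libraries did not deviate together in every pair (correlations of 0.367, 0.0871 and -0.086), and the numbers in the titles differ from those in the library names for CD36- NK, so they were not taken to pair the samples. In the fit with a replicate block, 560 genes in all were called in place of 880, 3 of the 7 receptor genes and 2 cargo genes, and Cd163 was at 2.77 (adjusted p = 0.0604). The cargo genes called there were Fabp4 and Plin2, so the calls of Lipa and Blvrb were lost. Of the other scavenger receptors 2 were called there, and Cd68 was not among them. With the form of the library name as a block, the call of Blvrb was also lost. Of the 3 CD36+ NK libraries, replicate 1 correlated best with its own number and replicates 2 and 3 did not.

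Leaving out 1 library gave 417 to 1160 calls in all, 1 to 6 of the 7 receptor genes, 0 to 5 other scavenger receptors, 3 to 4 partners, 1 to 3 transcription factors and 0 to 4 cargo genes. The log2 fold changes ranged from 3.06 to 4.72 for Marco, 0.676 to 1.19 for Scarb1, 2.12 to 3.59 for Cd163, 2.54 to 3.39 for Stab1 and 2.24 to 4.4 for Mrc1. Msr1 ranged from -0.1 to 0.486 and changed sign without CD36+ NK replicate 2 (-0.0247) and without CD36- NK replicate 3 (-0.1). Without CD36+ NK replicate 1, the library with T cell genes, the same 4 receptor genes were called. With a pseudocount of 0.5, the log2 ratio of Marco to Cd36 differed by 0.211, against -0.328 with 2, and that to the macrophage list by 0.921. Stab1 then differed by -0.725 against -1.25 and by -0.015 against -0.48. With Csf1r in place of that list, the differences were 0.826 for Marco, 0.589 for Cd163 and -0.0959 for Stab1. When 1 library was left out, the difference in log2 ratio to the macrophage list ranged from 0.481 to 1.06 for Cd36, 0.28 to 0.657 for Marco, 0.0763 to 0.398 for Cd163, 0.529 to 1.12 for Mrc1 and -1.0 to 0.267 for Stab1. Fits without a library have a smaller sample, and the cause of these changes was not tested. Counts as low as 12 in a library limit Stab1 and Marco in CD36- NK.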

Other observations

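The listed markers of other blood and liver cell types were summed in each library, and each list is described by its genes of highest mean CPM over the 6 libraries. Of all tested genes, 2.98% were called higher and 2.98% lower in CD36+ NK. The 7 erythroid genes, led by Hbb-bs, Hba-a1 and Hba-a2, summed to 345 to 779 CPM in CD36+ NK and 74.7 to 163 CPM in CD36- NK, and 5 were called higher. Hepatocyte genes, led by Trf, Alb and Apoa1, summed to 282 to 793 CPM and 64.2 to 189.7 CPM, but nearly all of this was Trf, with Alb at most 7.80 CPM and each other gene at most 1.18 CPM, and Trf, the 1 of them tested, was called higher (log2 fold change 2.01). The 6 B cell genes reported here, led by Cd79a, Ms4a1 and Cd79b, summed to 3254 to 3622 CPM and 2187 to 2629 CPM. The 6 marginal zone B cell genes, led by Cr2, Dtx1 and Cd9, summed to 848 to 1178 CPM and 596 to 686 CPM, of which Cr2 and S1pr3 were called higher. Dendritic cell genes, led by Itgax, Flt3 and Cd209a, summed to 291 to 354 CPM in CD36+ NK and 469 to 653 CPM in CD36- NK, most of it Itgax, at 197 to 255 CPM and 415 to 612 CPM, with Xcr1 and Clec9a called higher and Itgax lower. Monocyte genes, led by Fn1, Plac8 and Chil3, summed to 1306 to 2104 CPM and 1381 to 2443 CPM, with Ccr2 called lower. Platelet genes, led by Itgb3, Itga2b and Ppbp, summed to 53.6 to 79.0 CPM and 58.8 to 67.4 CPM, with Pf4 and Ppbp called higher. Stellate cell genes, led by Reln, Pdgfrb and Col1a1, summed to 6.77 to 8.46 CPM and 2.44 to 5.61 CPM, with Pdgfrb called higher and Lrat at 0. T cell genes, with Cd4, Cd8a and Cd3g highest on that mean, summed to 301 CPM in CD36+ NK replicate 1 against 25.6 to 45.3 CPM in the other 5 libraries, with Cd4 (log2 fold change 2.34, adjusted p = 0.0396) and Cd8a (3.17, adjusted p = 0.0396) called higher by edgeR and above every CD36- NK library in each CD36+ NK library. In CD36+ NK replicate 1 neutrophil genes, led by S100a9, S100a8 and Csf3r, summed to 2382 CPM against 459 to 1824 CPM. NK cell genes were led by Gzma, Nkg7 and Prf1, macrophage genes by Lyz2, Csf1r and C1qb, and endothelial genes by Pecam1, Cdh5 and Kdr. The part of these cell types in the levels of the receptor genes was not tested.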
